A study of Mus musculus with 16 samples.

Results

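Gene expression was described in oligodendrocytes of 8 unexposed mice, the control libraries of a study of 16 RNA-seq libraries, chosen as every library labelled as a control. The mice were 4 males and 4 females of OF-1, an outbred stock, at postnatal day 16, and the labels name no engineered allele. Their brains were dissociated, and oligodendrocytes were collected with magnetic beads against O4. RNA came from the cells of each sort that were not used for chromatin work. The other 8 libraries are from pups whose mothers drank bisphenol A, and they were not compared here. The libraries are separate samples, going by the design text. Litter and sorting day are not given in the labels, so some of the 8 mice may be littermates, and p-values measure only the spread between these samples.

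O4 is an antibody against sulfatide, a galactolipid that oligodendrocytes begin to show on their surface late in the precursor stage and keep as they mature. A sort on O4 therefore takes a span of stages and not only finished myelinating cells. Proliferating precursors carry Pdgfra, the receptor for platelet-derived growth factor. Cells that have committed to differentiate pass through a short stage marked by the receptor Gpr17 and by Bcas1, and myelinating cells make Mbp, Mog and the other proteins of the sheath. In the mouse brain the third postnatal week is a time of active myelination.

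Levels are given on 2 scales. CPM is a gene's counts in every 1000000 scaled counts of its library, and it was used to compare libraries for 1 gene. TPM divides the counts by the transcript length that the authors used before scaling to the same total, and it was used to compare genes within a library. In bulk RNA, fewer cells of a type and less RNA per cell cannot be told apart. Total counts per library ranged from 25127727 to 42575326, and 3 counts, taken as the floor of detection, corresponded to between 0.0705 and 0.119 CPM in a single library. Any 2 libraries of one sex differed by 19.4 to 33.2 chi-square units per gene against counting noise, so no library was a copy of another. Xist and the Y-linked genes matched the labelled sex in 8 of 8 libraries.

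The regions before the start sites of 4 sheath genes are shown. These genes are among the most abundant in the sort, and regulators of the SOX family, including Sox10, are known to act on myelin genes. They are not the top 4 by rank. Mbp and Tspan2, which had a higher mean TPM than Mag and Mog, are not shown. Each region shown is the stretch of 250 bases that ends just before an annotated start. It is read 5′ to 3′ on the strand of the gene, from RefSeq with the build GRCm38.p6. Capitals mark the 6-letter core ACAAAG, to which SOX proteins bind, on either strand, where it reads CTTTGT on the opposite one. Mobp lies at chr9:120149492-120149741, strand +, Cnp at chr11:100574689-100574938, strand +, the upstream region of 1 of 3 annotated starts of Mag at chr7:30914864-30915113, strand -, and Mog at chr17:37023399-37023648, strand -.
Mobp: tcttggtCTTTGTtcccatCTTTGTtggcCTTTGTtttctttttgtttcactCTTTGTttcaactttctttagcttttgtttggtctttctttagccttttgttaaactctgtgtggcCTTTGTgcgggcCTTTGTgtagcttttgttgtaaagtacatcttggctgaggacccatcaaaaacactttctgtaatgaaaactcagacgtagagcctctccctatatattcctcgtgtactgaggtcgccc
Cnp: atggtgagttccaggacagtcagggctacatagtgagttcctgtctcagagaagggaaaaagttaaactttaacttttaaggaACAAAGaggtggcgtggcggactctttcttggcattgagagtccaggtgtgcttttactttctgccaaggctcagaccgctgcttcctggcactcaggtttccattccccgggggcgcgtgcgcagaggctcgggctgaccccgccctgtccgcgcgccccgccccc
Mag: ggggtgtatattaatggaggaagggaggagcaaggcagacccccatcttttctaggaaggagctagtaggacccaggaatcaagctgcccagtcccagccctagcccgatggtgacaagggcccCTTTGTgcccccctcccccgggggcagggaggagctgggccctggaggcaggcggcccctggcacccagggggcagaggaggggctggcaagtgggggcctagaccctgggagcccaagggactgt
Mog: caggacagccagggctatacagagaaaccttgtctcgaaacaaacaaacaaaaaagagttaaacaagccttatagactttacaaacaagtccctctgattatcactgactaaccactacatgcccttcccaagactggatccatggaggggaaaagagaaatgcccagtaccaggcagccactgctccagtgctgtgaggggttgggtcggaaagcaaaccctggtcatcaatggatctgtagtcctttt

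The core occurred 6 times before Mobp, 1 time before Cnp and 1 time before this start of Mag, and these letters were not in the window of Mog. Of the other 2 starts of Mag, 1 had the core 1 time in its window and 1 did not have it. The window that had it overlaps the printed one, and the core in both is the same site. Among 15 of the 19 sheath protein genes that had an entry, 6 held the core, which were Cnp, Gjb1, Mag, Mobp, Opalin and Tspan2. Over all genes with an entry, 5015 of 27025 held it, or 18.6%. It was held by 4 of 16 among the 20 genes of highest mean TPM. Of the 4 printed genes all but Mog held the core, so they do not stand for the abundant genes. The mature and the precursor list each had it in 3 of 13 genes. Counted by annotated start, 35% of precursor and 32% of sheath protein windows held it, beside 16.5% of all windows. Windows of 1 gene can overlap, as for Mag, so this count can take in the same site more than 1 time. A match is a description of letters and was not tested for binding.

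Sheath protein genes were among the most abundant of the transcriptome. Mobp, a cytoplasmic protein of compact myelin, had 17509 ± 1392 TPM, and Mbp, the basic protein that closes the cytoplasmic faces of the membrane, had 12901 ± 1076 TPM (SD, n = 8 each). Mobp ran from 15435 through a median of 17314 to 19814 TPM, and Mbp from 10958 through 12903 to 14206. No library of Mobp overlapped any library of Mbp on this scale, but their order depends on the transcript length assigned to each gene, as given below.

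The 4 genes below Mbp by mean TPM were Tspan2, a tetraspanin of the sheath, at 8086 ± 398, Cnp, an enzyme of the noncompact cytoplasm of the sheath, at 7976 ± 415, Aplp1, a relative of the amyloid precursor, at 6844 ± 278, and Mag, an adhesion molecule of the inner face of the sheath, at 6620 ± 168 (SD, n = 8). Tspan2 and Cnp did not differ beyond their spread. Tspan2 ran from 7353 through a median of 8192 to 8551 TPM, and Cnp from 7535 through 7900 to 8780. Mag was the steadiest of the 19 sheath genes, with a lowest library of 9298, a median of 9832 and a highest of 10232 CPM.

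**Figure D1:**
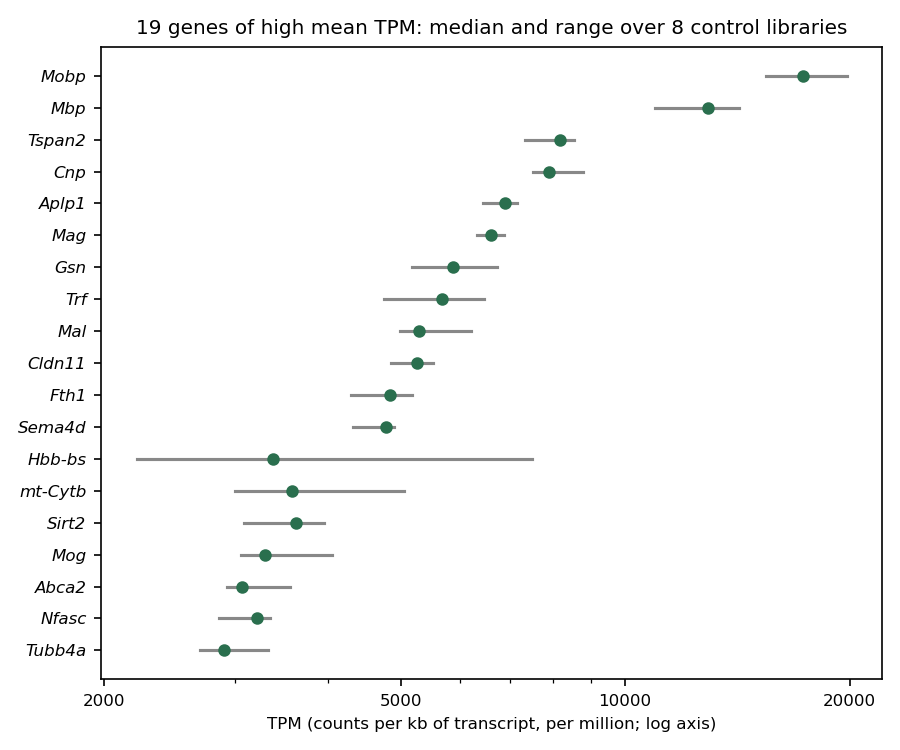
The plot sets 19 genes of high mean TPM (vertical axis) against their TPM on a log axis, with the median as a point and the range over the 8 control libraries as a line. Mobp is at the top, and Hbb-bs has the widest range as a ratio, from 2212 to 7498 TPM.

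Also among the top 20 were Gsn, Trf, Mal, Cldn11, Fth1, Sema4d, Hbb-bs, mt-Cytb, Sirt2, Mog, Abca2, Nfasc and Tubb4a. Several are known products of the lineage. Mal and Cldn11, a proteolipid and the tight-junction claudin of the myelin spiral, had 5502 ± 470 and 5232 ± 189 TPM, and Mog, on the outer face of the sheath, had 3348 ± 326 TPM (SD, n = 8 each). Trf and Fth1, transferrin and the heavy chain of ferritin, both of iron handling, had 5627 ± 572 and 4759 ± 344 TPM. Of the 50-base words in the transcripts of Trf, 59.4% also occur in transcripts of another annotated gene, so its count is uncertain. Hbb-bs, a beta globin of red cells, had 3923 ± 1677 TPM, and 53.2% of its words are shared in the same way.

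The order by TPM depended on the length assigned to a gene. The authors' length for Mobp is 0.569 kb, while its annotated exons cover 6.85 kb. With exon coverage as the length, Sema4d moved from rank 13 to 74 and Abca2 from 18 to 109. Between the 2 lengths 15 of the top 20 genes were shared.

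Few genes held a large share of the counts. The 10 most abundant genes held 15.9 ± 0.453% of the counts (SD, n = 8), with 15.3% in the lowest and 16.6% in the highest library. The top 100 held from 30.0% to 31.5%, and between 481 and 536 genes made up 50% of all counts. At the other end, 12618 genes reached 1 CPM or more in all 8 libraries, and 16571 genes with a mean above 0 and below 1 CPM together held 0.196% of the counts.

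All 5 lineage markers were present in every library. Mbp had 12901, Mog 3348, Bcas1 1411, Gpr17 670 and Pdgfra 116 mean TPM, so the markers of late stages stood above that of precursors. Within each library Mbp was between 81.1 and 155 times Pdgfra, and Gpr17 between 4.25 and 8.37 times. The highest ratios of Mbp, Mog, Bcas1 and Gpr17 to Pdgfra all came from female control 1, which had the least Pdgfra.

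Pdgfra had 183, 132, 210 and 137 CPM in male controls 1 to 4 and 86.6, 125, 128 and 123 CPM in female controls 1 to 4. Male control 3 was the highest and female control 1 the lowest, and the sexes did not overlap. Gpr17 had 2585, 2588, 3171 and 2740 CPM in the males and 2413, 2604, 2634 and 2855 CPM in the females. Here too male control 3 was the highest and female control 1 the lowest, but the sexes overlapped.

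Bcas1 varied little, with 1142, 1039, 1198 and 1100 CPM in the males and 1049, 1072, 1099 and 1169 CPM in the females. Mog had 3617, 2807, 2733 and 2938 CPM in the males and 3167, 3042, 3125 and 2768 CPM in the females. Its order differed from that of Gpr17, since male control 3 was the lowest of the 8 for Mog. Mbp had 19084, 16458, 19668 and 18219 CPM in the males and 15535, 17953, 19411 and 17916 CPM in the females, with full overlap of the sexes.

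**Figure D2:**
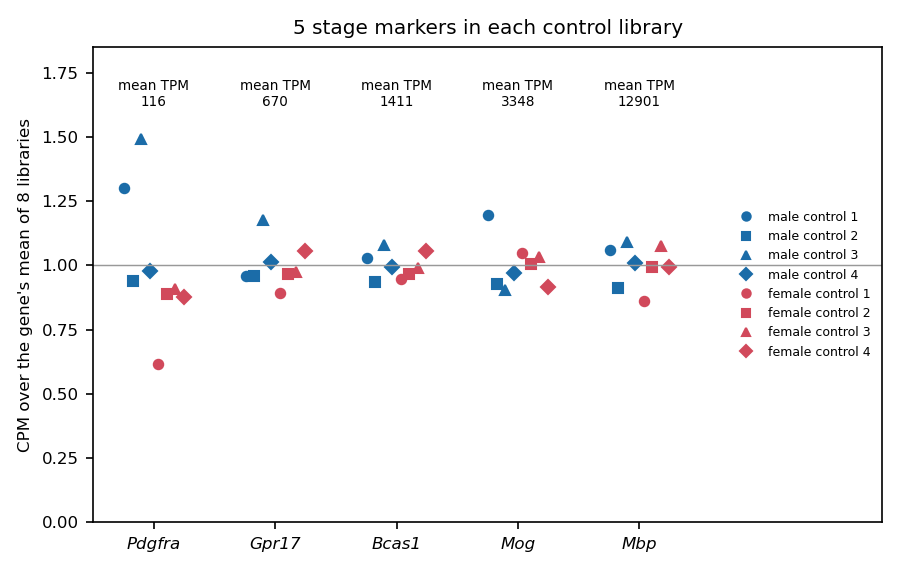
CPM of 5 lineage markers (horizontal axis) in each control library, divided by the mean of the 8 libraries, with males in blue, females in red and the mean TPM of each gene printed above. Pdgfra spreads most, from 86.6 CPM in female control 1 to 210 CPM in male control 3, and Bcas1 least, from 1039 to 1198 CPM.

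Precursor genes were detected throughout. All 18 listed genes reached 1 CPM in every library, and their sum ran from 3524 CPM in female control 1 through a median of 4238 to 4601 CPM in male control 3, or 0.457% of TPM on average. The proteoglycans and matrix proteins that lead this list, Tnr with 2254 ± 191, Bcan with 1574 ± 134, Vcan with 162 ± 24.5 and Ptprz1 with 124 ± 14.2 TPM (SD, n = 8 each), are also made outside the precursor stage. Cspg4, the NG2 proteoglycan of precursors, had 16.6 mean TPM. The length assigned to Tnr weighs on its place, since it moved from rank 28 to 249 with exon coverage as the length.

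The committed and newly formed stage had a higher sum, 7313 to 9162 CPM with a median of 7919. Enpp6, a choline phosphodiesterase of newly formed oligodendrocytes, had 1125 ± 44.95 TPM, Fyn, a kinase that relays axonal signals, 540 ± 48.8 TPM, Frmd4a 350 ± 28.6 TPM and Lims2 256 ± 43.9 TPM (SD, n = 8 each). All 16 members reached 1 CPM in every library. Of these, 12 were highest in male control 3 and 8 were lowest in female control 1. The precursor list had the same extreme libraries, with 13 of 18 members highest in male control 3 and 12 lowest in female control 1.

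The 19 sheath protein genes summed to between 152159 and 170841 CPM, 13.4% of TPM on average. Beside those named above, Nfasc, an adhesion protein of nodes and paranodes, had 3144 ± 171 TPM (SD, n = 8). The lowest member was Pmp22, best known from peripheral myelin, with 25.4 to 39.7 CPM. The highest sum was 1.12 times the lowest.

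Genes of mature oligodendrocytes summed to between 15502 and 17719 CPM, 2.13% of TPM. Gsn, an actin-severing protein, had 5903 ± 533 TPM, Apod, a lipid carrier, 2141 ± 291 TPM, Sept4, a septin of the myelin scaffold, 1231 ± 36.6 TPM, Plekhb1 994 ± 124 TPM and Car2, a carbonic anhydrase, 990 ± 166 TPM (SD, n = 8 each). Of the 20 members 16 had a mean of 100 CPM or more. The other 4 were Grm3, a glutamate receptor with 14.04 mean CPM, and 3 genes given by their range. Klk6, a secreted protease, had 20.1 to 51.4 CPM, Ptgds, prostaglandin D synthase, 32.1 to 76.4 CPM and Il33 3.03 to 9.24 CPM.

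All 18 lineage transcription factors reached 1 CPM in every library. Olig1 and Olig2, which specify the lineage, had 1210 ± 51.5 and 301 ± 28.0 TPM. Sox10 had 747 ± 60.8 TPM and Myrf, the factor that switches on myelin genes, 602 ± 26.9 TPM (SD, n = 8 each). Sox8 had 469 ± 85.1 and Zeb2 378 ± 32.0 TPM. Sox8 was uneven between animals, with 249, 244, 392 and 416 CPM in the males and 366, 326, 335 and 378 CPM in the females, so male controls 1 and 2 were below the other 6.

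The lipid machinery of the sheath was abundant and even. Genes of galactolipid and fatty acid synthesis summed to between 20182 and 23668 CPM. They were led by Scd2, a stearoyl-CoA desaturase, at 2853 ± 168 TPM, Cers2, the ceramide synthase for very long chains, at 2242 ± 90.6 TPM, and Ugt8a, which makes galactosylceramide, at 1795 ± 101 TPM (SD, n = 8 each). Gal3st1, which sulfates it to the sulfatide that O4 detects, had 367 mean TPM and 463 to 533 CPM. Cholesterol synthesis genes summed to between 7784 and 8807 CPM, with Cyp51, a sterol demethylase, at 1458 ± 105 and Hmgcs1, a synthase early in the pathway, at 1295 ± 92.8 TPM (SD, n = 8 each). All 16 and all 19 members of these lists reached 1 CPM in every library.

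Cell cycle transcripts were scarce. The 18 genes summed to 112 to 131 CPM, and the highest by TPM were Pcna, Mcm4 and Top2a, with 41.1, 35.8 and 16.6 mean TPM. Mki67, a marker of cycling cells, had 8.91 to 14.2 CPM. Schwann cell genes summed to 47.5 to 61.6 CPM, of which Cdh19 made up 95.8%, and the other 5 members were each under 2 CPM in every library.

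Astrocyte and microglial genes were detected in every library, and some were as abundant as lineage markers. Astrocyte genes summed to between 1564 and 3197 CPM with a median of 2280, or 0.342% of TPM. They were led by the glutamate transporters Slc1a2 and Slc1a3, at 1608 ± 374 and 442 ± 116 TPM, and by the aldolase Aldoc at 371 ± 89.95 TPM (SD, n = 8 each). The mean of Slc1a2 was above that of Bcas1, at 1411 TPM, but this order depended on the scale. By counts Slc1a2 made up 28.9% of the astrocyte sum, whose mean was 2325 CPM. It was then below Bcas1, which had 1120 CPM in males and 1098 CPM in females on average. Microglial genes summed to between 773 and 2491 CPM with a median of 1336, or 0.153% of TPM, with Laptm5 and Csf1r highest at 313 and 243 mean TPM. All 16 astrocyte and all 17 microglial genes reached 1 CPM in every library.

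Neuronal genes summed to 234 to 284 CPM, and Map2, which encodes a microtubule protein, made up 64.8% of that. Of the 18 neuronal genes 11 reached 1 CPM in every library, and 4 had a mean of 10 CPM or more. Some defining markers were lower, chosen here after their values were seen. Rbfox3 had 0.383 to 0.710 CPM, the glutamate transporter genes Slc17a7 and Slc17a6 had at most 0.328 and 0.106 CPM, and Slc17a6 had 0 counts in at least 1 library. Endothelial genes summed to 83.3 to 194 CPM, with Itm2a, Cldn5 and Ly6c1 at 19.2, 16.6 and 12.6 mean TPM. Mural and fibroblast genes summed to 29.3 to 81.7 CPM, with Col1a2 the highest by counts, at 9.43 mean CPM. Per length the highest were Col1a1, Col3a1 and Vtn, at 25.9, 11.7 and 6.96 mean TPM.

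Ependymal and choroid plexus genes summed to 126 to 698 CPM, and 86.0% of this was Ttr, the transthyretin of choroid plexus. Ttr had 266, 84.6, 141 and 296 CPM in the males and 375, 240, 121 and 653 CPM in the females. Female control 4 was far above the other 7 libraries. Leukocyte and border macrophage genes summed to 65.2 to 128 CPM, and 3 of 9 measured members, Mrc1, Lyve1 and Cd163 of border macrophages, reached 1 CPM in every library. The neutrophil marker Ly6g had 0 counts in 7 of 8 libraries.

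Red cell transcripts held 0.517% of TPM, beside 0.342% for the astrocyte list and 0.153% for the microglial list. These shares depended on the length assigned to each gene. With the authors' lengths the mean sums were 5173 TPM for red cells, 3415 for astrocytes and 1533 for microglia. With exon coverage as the length they were 9939, 1679 and 2840 TPM, so the microglial list then stood above the astrocyte list. The red cell order against astrocytes depended on the scale, since by counts the red cell sum was lower, at 1873 against 2325 mean CPM. By TPM it was higher in 7 of 8 libraries, all but male control 2. Their sum was 1372, 1469, 1091 and 1626 CPM in the males and 3458, 1655, 1846 and 2466 CPM in the females. Female control 1 was the highest, and the sexes did not overlap. The globin genes share 53.2% to 89.3% of their words with each other or further copies, so the split between them is uncertain, but Alas2, the heme synthesis enzyme of red cell precursors, shares none. Alas2 had 56.5, 52.1, 38.9 and 56.4 CPM in the males and 131, 55.1, 74.1 and 94.6 CPM in the females. Its highest libraries were female controls 1 and 4, as for the sum, but its sexes overlapped, since female control 2 lay below male controls 1 and 4.

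Genes of position along the brain were low but present. Lhx2, of the forebrain, had 7.88 to 17.2 CPM, and En2, of the midbrain and cerebellum, 22.2 to 33.9 CPM. Hox genes, which mark hindbrain and spinal cord, were at or near 0, and Hoxc6 had 0 counts in all 8 libraries, which allows up to 0.0105 CPM over the 285589418 counts of the group. The mitochondrially encoded genes measured here held between 0.899% and 1.29% of the counts, and mt-Cytb, mt-Co1 and mt-Nd1 had 3821, 2306 and 1995 mean TPM. The 79 cytosolic ribosomal protein genes summed to 2131 to 2556 CPM. The highest included Rpl4, Rps3 and Rplp1, at 302, 239 and 125 median CPM. Of the 79, 6 share 50% or more of their words with other annotated genes, and their values are uncertain. The other 73 had a median of 9.92 CPM, and 37 of them were under 10 CPM.

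Genes of microglia, astrocytes, endothelium and choroid plexus varied more between animals than genes of the oligodendrocyte lineage. The median SD between animals of one sex on the log2 CPM scale was 0.11 for sheath protein genes, 0.10 for galactolipid genes and 0.09 for cholesterol genes. It was 0.13 for lineage transcription factors, 0.15 for committed stage genes, 0.18 for mature genes and 0.21 for precursor genes. It was 0.62 for microglial, 0.48 for astrocyte, 0.50 for endothelial and 0.75 for ependymal and choroid plexus genes. Over all 13387 genes whose mean was 1 CPM or more the median was 0.13. This SD also carries counting noise, which for a typical gene between 1 and 10 CPM was 0.13. Counting noise was 0.02 between 100 and 1000 CPM, where the observed median SD was 0.09.

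**Figure D3:**
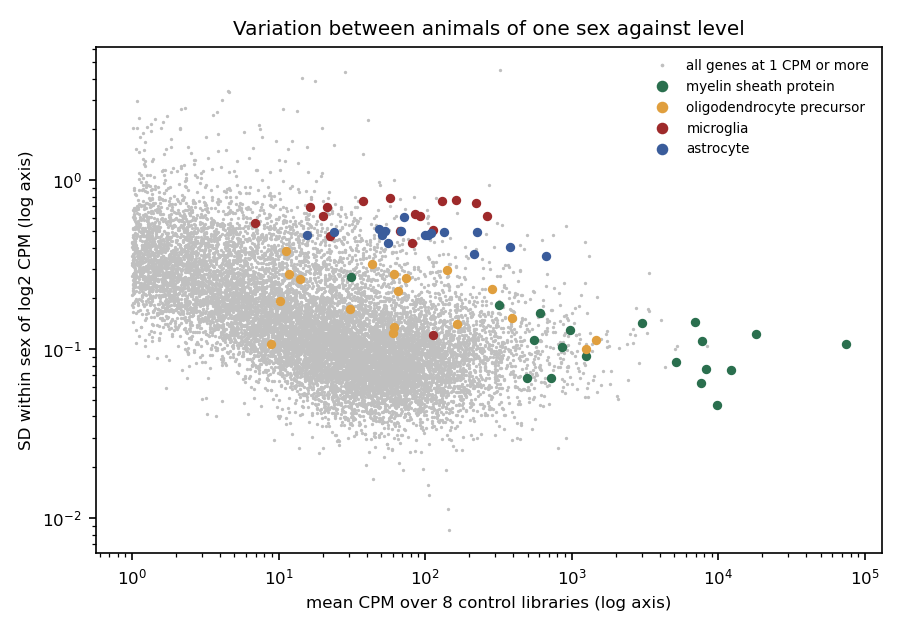
SD of log2 CPM within sex (vertical, log axis) against mean CPM over 8 control libraries (horizontal, log axis), with 1 point per gene. Sheath protein genes lie at the right near the median SD of 0.11 for their list, and most microglial genes lie above the cloud at a median of 0.62.

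Microglial genes varied together between animals. P2ry12, the purinergic receptor of resting microglia, had 75.8, 237, 126 and 77.7 CPM in the males and 277, 280, 106 and 117 CPM in the females. Male control 2 and female controls 1 and 2 were high, and male controls 1 and 4 were low. Tmem119, a microglial membrane protein, had 24.1, 78.9, 48.2 and 27.0 CPM in the males and 111, 91.9, 37.2 and 44.5 CPM in the females, with the same libraries high and low. Of the 17 listed genes, 15 were highest in female control 1 and 13 lowest in male control 1. The exception was Sall1, a zinc finger factor, whose SD of 0.12 was that of an oligodendrocyte gene and which had 93.2 to 129 CPM.

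Immediate early genes had the same high and low libraries. These genes are known to answer stimuli within minutes of their onset. Their 20 members summed to 1266, 1940, 1653 and 1210 CPM in the males and 2176, 2027, 1706 and 1617 CPM in the females, beside microglial sums of 773, 1996, 1286 and 860 CPM and of 2491, 2226, 1096 and 1386 CPM. Egr1 had 64.7, 166, 120 and 52.1 CPM in the males and 192, 189, 60.5 and 102 CPM in the females. Jund, with 314 to 392 CPM, varied least of the list, and Fos had 99.6 to 208 CPM. The part of microglial RNA in the immediate early sums was not tested.

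Astrocyte, endothelial and choroid plexus genes followed orders other than that of microglial genes. These orders were not the same, since male control 2 was above the mean for astrocyte genes and below it for the others. Its median log2 difference from the 8-library mean was 0.40 for astrocyte, -0.23 for endothelial and -0.54 for ependymal and choroid plexus genes. Gja1, the gap junction protein connexin 43, had 243, 276, 141 and 181 CPM in the males and 287, 223, 134 and 318 CPM in the females. Of the 16 astrocyte genes, 12 were highest in female control 4 and 11 lowest in female control 3. All 13 endothelial genes were highest in female control 4, and 10 were lowest in female control 3. Cldn5, the claudin of the blood-brain barrier, had 21.9, 14.6, 13.98 and 18.4 CPM in the males and 21.4, 16.7, 9.84 and 28.8 CPM in the females. Male control 3, which was highest for precursor genes, was low for astrocyte, endothelial and fibroblast genes.

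**Figure D4:**
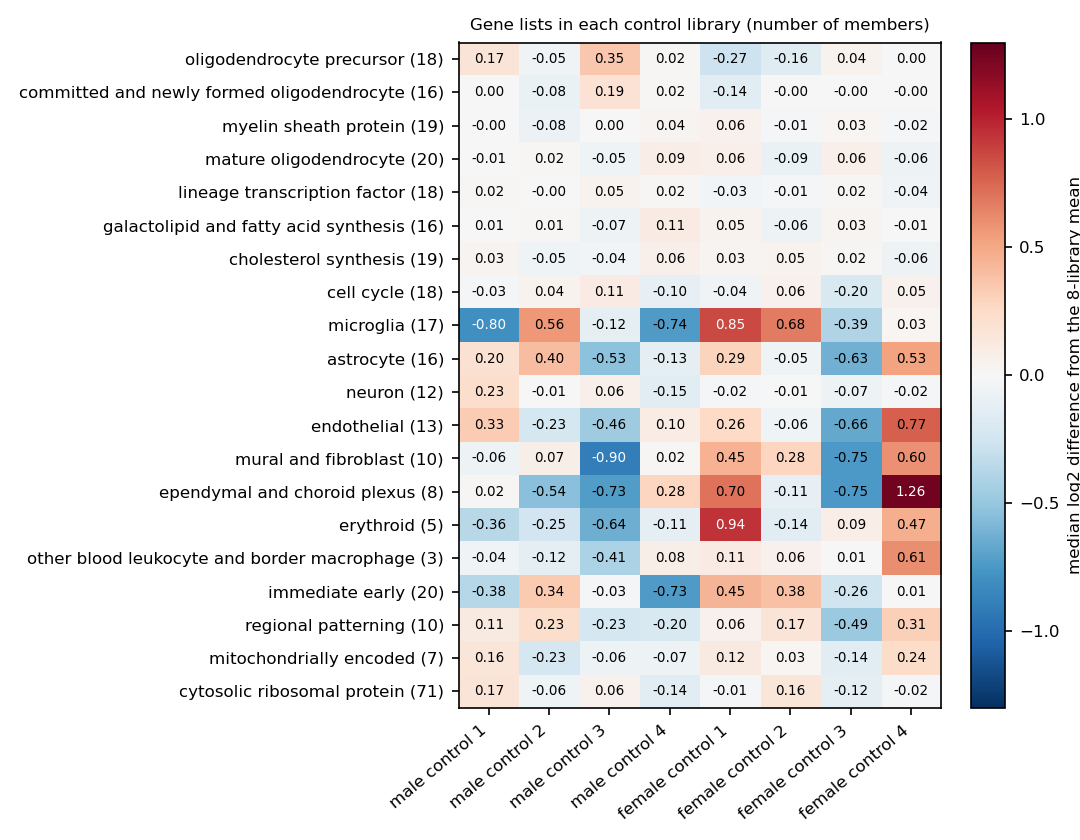
Median log2 difference of each gene list (rows, with the number of members at a mean of 1 CPM or more) from its mean over the 8 control libraries (columns), printed in each cell and shown by colour. Microglia run from -0.80 to 0.85, while sheath protein genes run from -0.08 to 0.06.

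A principal component analysis of the 1000 most variable genes above a mean of 10 CPM was made after removal of the sex means. Component 1 held 37.9% of the variance and set male control 3 against female control 4. Component 2 held 28.9% and set male control 2 and female control 1 against female control 3. The largest weights on both belonged to genes with a step between libraries, described below. They were Gm13340, Gm4076, Efna3 and Gm13394 on component 1 and Lrat, Rps3a3, Gm13394 and Trp53cor1 on component 2. Among the 100 genes with the largest weights on component 2 were 14 of the 15 microglial and 6 of the 13 immediate early genes in the set. On component 1 these counts were 1 and 0, beside 6 of 16 astrocyte and 2 of 3 endothelial genes. The 1000 genes were chosen for their variation, so the counts are a description. The part of other cell types in the components was not tested.

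Some genes were nearly off in some animals and on in others. Efna3, an ephrin ligand, had 118 CPM in male control 1 and 107 CPM in female control 4 and at most 0.473 CPM in the other 6. It had the largest SD within sex of the 8699 genes with a full symbol that averaged 10 CPM or more, 4.37. Lrat, which esterifies retinol, had 0.0489 CPM in female control 3 and 11.3 to 18.8 CPM in the others. H2-Ab1, a class II histocompatibility chain, had 46.1, 79.4, 99.6 and 86.8 CPM in male control 2 and female controls 1, 2 and 3 and at most 4.09 CPM in the rest, an order that differed from that of the microglial list. Clgn, a chaperone best known from testis, had 102 CPM in male control 3 and 110 CPM in female control 1 and between 12.7 and 19.6 CPM elsewhere.

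The ribosomal protein gene Rps3a1 and its relative Rps3a3, which is annotated as a processed pseudogene, took 3 levels. Rps3a3 had 13.1 to 15.4 CPM in male control 2 and female controls 2, 3 and 4, had 29.3 CPM in female control 1 and had 0.0589 CPM or less in the others. Rps3a1 went the other way, with 14.7 to 16.7 CPM in male controls 1, 3 and 4, with 7.22 to 8.69 CPM in the 4 intermediate libraries and with 0.663 CPM in female control 1. Their transcripts share 65.1% and 71.0% of their words with other annotated genes, so both values are uncertain. Tpm3-rs7, a retrocopy of the tropomyosin gene Tpm3 that shares 69.4% of its words with it, also took 3 levels, 0.447 CPM in female control 2, 13.6 to 14.4 CPM in male controls 1 and 2 and female control 4, and 26.8 to 32.3 CPM in the others.

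A step of more than 4-fold between 1 set of libraries and the rest was found in 15 of 8599 genes that averaged 10 CPM or more outside the sex chromosomes and the mitochondrial genome, or 0.174%. This rule was chosen after the values were seen. Besides those above it took in Trp53cor1, Rps19, Rps2, Abhd1 and the 4 genes Gm13340, Gm13394, Gm4076 and Gm19439. Gm13340 had at least 534 CPM in male controls 1, 2 and 4 and female control 4 and at most 1.59 CPM in the other 4, and it shares 27.5% of its words with mt-Co1. The low set differed between genes, with 12 different sets for the 15 genes, and 9 had both sexes on both sides of the step.

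**Figure D5:**
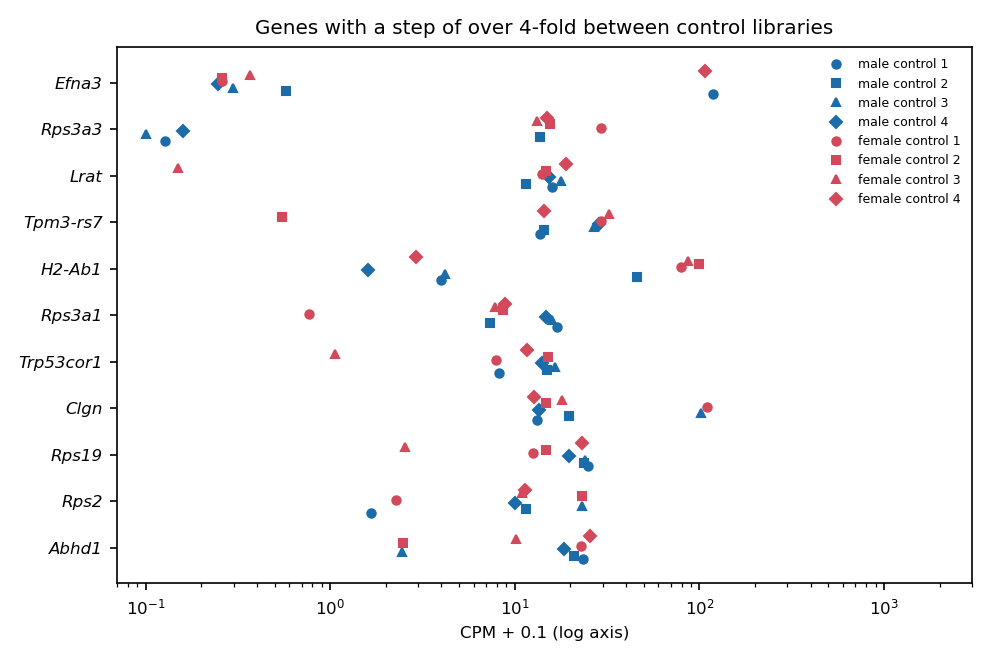
CPM plus 0.1 on a log axis for the 11 named genes with a step of more than 4-fold, with 1 point per control library, males in blue and females in red. Efna3 is at 118 and 107 CPM in 2 libraries and under 0.5 CPM in the other 6.

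The next most variable genes by rule had a spread without such a step. Grm4, a glutamate receptor, had 5.75, 16.7, 6.56 and 44.6 CPM in the males and 28.2, 38.7, 3.01 and 48.3 CPM in the females. Thbs4 ran from 3.02 to 28.4, Naaa from 5.44 to 42.1, Ccl9 from 3.38 to 24.98 and Cdkn1a from 3.16 to 34.3 CPM. The steadiest genes were Eif5, an initiation factor, with 140 to 150 CPM and an SD of 0.01, followed by Psip1, Stau1, Sgta, Mcmbp, Chtop, Ube2q1 and Psmc1, whose SD was at most 0.02. Among the 100 most variable genes of this kind were 11 of the 16 microglial and 4 of the 16 immediate early genes that reached 10 CPM, and 0 of the 19 sheath protein genes.

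Between the sexes, genes on the sex chromosomes stood out and autosomal genes did not pass the test. With limma-voom and Benjamini-Hochberg adjustment, 7 of 15766 genes differed between 4 female and 4 male controls at an adjusted p under 0.05, or 0.0444%. Of these, 1 was higher in females, Xist, the RNA that silences an X chromosome, with 821 against 0.173 mean CPM. The other 6 were Y-linked and higher in males, among them Ddx3y with 110 against 0.0763, Eif2s3y with 79.4 against 0.0127, Kdm5d with 36.5 against 0.0702 and Uty with 26.4 against 0.0193 mean CPM. The mean of every one of these 4 in females was under or near the floor of 3 counts. Without any 1 female library the limma-voom adjusted p of Eif2s3y was between 0.11 and 0.1565, so it was no longer called.

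Of 15190 autosomal genes 0 passed, or 0.0%, and 572 of them had an unadjusted p under 0.05 with limma-voom. Among the smallest autosomal p values were those of Ccdc134, with a log2 fold change (female minus male) of -0.42 ± 0.06 (SE), Hbb-bt with 0.94 ± 0.15, Pcdhga5 with 1.28 ± 0.22 and Nckap5l with 0.32 ± 0.06. Their adjusted p values in limma-voom were 0.116, 0.284, 0.284 and 0.481. Without female control 4 the count of called genes was 11, and limma-voom then called autosomal genes, among them Hist1h2al at an adjusted p of 0.0248 with a log2 fold change of 7.93. Hist1h2al was named after its values were seen. Without female control 1 limma-voom called 1 autosomal gene, Hbb-bt, at an adjusted p of 0.0312. It also called 1 autosomal gene without male control 3 and 1 with all 16 libraries in the fit. Beside Xist, the X-linked list holds 4 genes known to escape silencing, and none of these passed the test. The CPM of all 5 members of the list lay above that of every male in all 4 females, where 0.894% of all tested genes did so. Eif2s3x had a log2 fold change of 0.86 ± 0.13, Ddx3x of 0.28 ± 0.05 and Kdm5c of 0.30 ± 0.07 (SE, limma-voom adjusted p 0.116, 0.225 and 0.915). With all 16 libraries in the fit limma-voom called Eif2s3x at an adjusted p of 0.00726.

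No gene of the oligodendrocyte lists was called between the sexes. Mbp, Mog, Gpr17 and Bcas1 had log2 fold changes (female minus male) of -0.05 ± 0.08, 0.01 ± 0.09, -0.08 ± 0.08 and -0.03 ± 0.06 (SE), with limma-voom adjusted p values of 0.9999. Pdgfra had -0.51 ± 0.18 (SE) and the same adjusted p of 0.9999. All 18 precursor genes had a lower estimate in females, with a median of -0.24, beside 48.5% of all tested genes with a higher estimate and a median of -0.00 over all. Of these 18, the CPM of Pcdh15, Pdgfra and Xylt1 lay below that of every male in all 4 females, where 1.31% of all tested genes did so. Pcdh15 and Xylt1 were named after their values were seen. All 17 microglial, all 20 immediate early, all 13 endothelial and all 7 erythroid genes had a higher estimate in females, with medians of 0.62, 0.36, 0.12 and 0.72. Hba-a1 and Hbb-bt alone of these lay above every male in all 4 females, where 0.894% of all tested genes did so. The members of a list vary together between animals, as shown above, so such counts are not independent observations, and the part of other cell types in the precursor estimates was not tested.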

How the data were processed

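The deposited table gives whole-number counts per gene for 16 libraries, and beside them values that the authors normalized and then divided by the median transcript length in kb, per the labels' descriptions. Its units could not be read automatically, so the columns used were matched to samples and measures by their headers. Libraries were stranded and poly(A)-selected from 100 ng of RNA, per the labels' protocols. The submitters' processing notes name bcl2fastq 2.20.0.422, STAR 2.5.3a, HTSeq 0.6.1p1, DESeq2 1.16.1 and the build mm39, without their roles. Only the 8 control libraries were described, and 16 value columns of the table were not used.

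CPM used trimmed-mean (TMM) factors computed in R 4.3.3. TPM used the length recovered as the ratio of the authors' 2 deposited value sets. SDs are of log2 CPM (prior count 2), pooled within sex. Sex was tested with limma 3.58.1 (voom weights, robust empirical Bayes, two-sided, Benjamini-Hochberg, threshold 0.05) on 15766 genes with a count of 10 or more in enough libraries and 15 in total, which held 99.9% of counts. A count test had been planned first, with limma-voom in its place if the automatic check could not read the count columns, as happened. On simulated counts 30 of 67, 44 of 67 and 59 of 66 genes changed 1.5-, 2- and 4-fold were recovered, or 44.8%, 65.7% and 89.4%. Beside these, 14 unchanged genes were called. These false calls were a larger share of all calls in that simulation than the threshold of 0.05 allows on average. Symbols (31717 of 32207 genes), biotypes and transcript words come from GENCODE release M21, whose build differs from the authors', so it gave no positions of the measured genes. Promoter sequences are RefSeq's on GRCm38.p6.

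The 23 gene lists hold 396 genes, of which 389 are in the table, and 7 are not analysed here. Members and lists were chosen with earlier results of these data known. Named were the 20 genes of highest TPM, up to 6 members of each oligodendrocyte list and up to 3 of each other list by TPM, members at 0 in all libraries, 5 markers, the 15 most and 8 least variable genes with a full symbol and a mean of at least 10 CPM, the called genes and, with under 3 autosomal calls, the 5 autosomal genes of smallest p. Other members are named for their role or range, chosen after their values were seen. Some genes that the rule names are not reported here. Alternatives were other scalings, filters, lengths and test designs, and each library left out in turn.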

Additional observations from a re-analysis of the deposited data

Results flagged for a closer look

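Within each sex, the highest or lowest of 4 libraries was compared with its nearest neighbour by Dixon's criterion at the 95% level. Of 280 such comparisons 23 stood out. Chance alone gives about 1 in 20 for items chosen without regard to their spread. Some of the genes compared were named for a large spread, and members of a list vary together, so this rate is no yardstick here. Of the gene lists, mural and fibroblast genes were low in male control 3, at 29.3 CPM against 55.7 to 57.9 in the other males, and leukocyte and border macrophage genes were high in female control 4, at 128 CPM against 86.5 to 92.5 in the other females.

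Among lineage genes, Pdgfra was low in female control 1 (86.6 CPM against 123 to 128) and Olig2 was high in male control 3 (705 against 596 to 601). Nfasc was low in male control 1, at 7745 CPM, Plekhb1 was high in female control 3, at 1356 CPM, and Tspan2 was high in female control 1, at 5395 CPM. Among genes of other cells, Mrc1 stood at 89.2 CPM in female control 4, Lyve1 at 8.97 CPM in male control 3, Col1a1 at 5.87 CPM in female control 3, Map2 at 198 CPM in male control 3, Meg3 at 10.7 CPM in female control 1, Lhx2 at 14.5 CPM in male control 2 and Pcna at 32.5 CPM in female control 1. Uty stood out at 0 CPM in female control 4, but the other females were below the floor too.

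The flags of genes with large steps add no separate support, since these genes were named for their large spread between animals. They were Efna3 in male control 1 (118 CPM) and female control 4 (107 CPM), Clgn in male control 3 (102 CPM) and female control 1 (110 CPM), H2-Ab1 in male control 2 (46.1 CPM), Rps3a3 in male control 2 (13.6 CPM) and female control 1 (29.3 CPM) and Rps3a1 in female control 1 (0.663 CPM).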

How the results depend on the processing

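The count of genes called between the sexes was 7 with limma-trend, with median-of-ratios scaling and without the filter, the same 7 genes each time, and 9 with all 16 libraries in the fit, where Eif2s3x was among those added. Fitted on autosomal genes alone it was 0 with limma-voom, with 565 at an unadjusted p under 0.05. Leaving out 1 library gave 6 to 11, with 11 without female control 4. With a replicate block it was 7. The labels do not say whether equal numbers mark a shared litter or sorting day. Correlations of the deviations of equal-numbered libraries ran from -0.15 to 0.22, and 2 of 4 were over 0.1. So few pairs cannot decide it. The share of the top 10 genes was 13.6% by length. The median SD was 0.10 among genes of at least 10 CPM, and the cause was not tested. The other settings left that share, that SD and the count of 12618 detected genes within their spread or within 1.5-fold. Of 184 list sums with 1 library left out, 184 moved by less than 1 SD between libraries. Each sum is a mean over the libraries, and leaving 1 out cannot move such a mean by 1 SD. The count of 184 was therefore fixed in advance and says nothing about robustness. The same holds for the share of the top 10 genes with 1 library left out. Under other lengths or without the leading member, 18 of 69 list sums moved by less than 1 SD. DESeq2 was not run. Depth limits statements under 0.119 CPM.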
